A study of Mus musculus with 10 samples.

Results

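A set of 10 genes that encode feedback brakes on mitogen-activated protein kinase (MAPK) signalling were followed in innate lymphoid cells (ILCs) of mouse skin: the dual-specificity phosphatase genes Dusp1, Dusp2, Dusp4, Dusp5, Dusp6 and Dusp10, the Sprouty genes Spry1 and Spry2, and the Sprouty-related genes Spred1 and Spred2. The members were found by matching the files' versioned Ensembl identifiers to these symbols, which found all 10 members among 47643 genes. Growth factors, cytokines and antigen receptors switch on Ras, which passes the signal through RAF and MEK to the ERK kinases, while stress and cytokine signals run to p38 and JNK. DUSPs switch MAPKs off by removing the phosphates that activate them, and Sprouty and Spred proteins act further upstream, between the receptor and RAF. Many of these genes are themselves induced by the pathway that they limit, which makes them a negative feedback loop, and in lymphocytes several are rapidly induced on activation.

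The libraries hold ILCs, lymphocytes without rearranged antigen receptors, sorted from skin layers of adult mice of the B6 strain. There were 3 libraries of epidermal ILCs, 2 of dermal ILCs with the chemokine receptor CCR6 (CCR6+), 2 of dermal ILCs with the surface protein Sca1 (Sca1+) and 3 of subcutaneous ILCs. The labels give no treatment, allele, sex or number of pooled animals, and the study's design speaks of triplicates while 2 libraries of either dermal population were analysed here. The marker that assigns the second library of each dermal population stands in its title, while its cell type label names the dermis alone. Nothing in the labels says that the libraries of a group came from separate animals, so p-values measure the spread between libraries, which may be technical. The libraries are called by layer and replicate number below.

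Each library had 11627222 to 18118544 expected counts, and 14983 to 19376 genes had at least 1 count. Ccr6 averaged 1128 ± 200 CPM (counts scaled to a common library total) in epidermal, 833 ± 76.9 in dermal CCR6+, 71.3 ± 42.9 in dermal Sca1+ and 8.10 ± 13.9 in subcutaneous libraries. Ly6a, which encodes Sca1, averaged 207 ± 51.5 CPM in epidermal, 157 ± 78.8 in CCR6+, 1406 ± 17.3 in Sca1+ and 1520 ± 330 in subcutaneous libraries (SD, n = 3, 2, 2 and 3). All 6 ILC marker genes (Ptprc, Il7r, Thy1, Id2, Gata3 and Rora) had counts in every group, with summed levels of 4170 to 4722 CPM in epidermal, 6927 to 7089 in CCR6+, 8456 to 8598 in Sca1+ and 6920 to 8341 in subcutaneous libraries. The summed level of 8 T cell genes was 430 to 485 CPM in epidermal, 692 to 772 in CCR6+, 308 to 417 in Sca1+ and 216 to 408 in subcutaneous libraries, and that of 6 NK cell genes was at most 36.7 CPM except for 536 CPM in subcutaneous replicate 2. Genes of cells from the surrounding tissue were also present at levels that differed by layer, and they are given beside the results below.

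The members lie on 9 chromosomes, with Dusp2 and Spred1 both on chromosome 2. In GENCODE M21, on the mm10 build that the submitters name, the genes of the largest results are Dusp2 at chr2:127336159-127338376 on the plus strand, Dusp4 at chr8:34807297-34819894 on the plus strand, Dusp5 at chr19:53529109-53542431 on the plus strand, Dusp10 at chr1:184013302-184075636 on the plus strand, Spry1 at chr3:37639947-37644598 on the plus strand and Spry2 at chr14:105891947-105896819 on the minus strand. Dusp1 lies at chr17:26505590-26562128 on the minus strand, a model that shares exon bases with Ergic1 on the opposite strand. The library kit does not mark the strand, so reads of such partners cannot be told apart. Ergic1 had at most 2349 expected counts in any library, against 25449 to 52531 for Dusp1. Dusp5 shares exon bases with an antisense gene, AC137853.2, that was not analysed here, and Spry1 with Gm42922, which had at most 16.1 expected counts.

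The promoters of 4 members are shown. Dusp1 is the most abundant member, Dusp5 and Dusp10 followed almost the same course over the groups, and Spry2 had the steepest difference. Each is the 250 bases before the RefSeq transcription start on GRCm38.p6, 5′ to 3′ on the strand of the gene. Capitals mark every match, on either strand, to 5 motifs: the cyclic AMP response element TGACGTCA and its core TGACG, which reads CGTCA on the other strand, the AP-1 element TGANTCA, the CArG box bound by serum response factor and the ETS core CCGGAA. The windows are chr17:26508473-26508722 (minus strand) for Dusp1, chr19:53528895-53529144 (plus) for Dusp5, chr1:184034131-184034380 (plus) for Dusp10 and chr14:105896820-105897069 (minus) for Spry2.
Dusp1: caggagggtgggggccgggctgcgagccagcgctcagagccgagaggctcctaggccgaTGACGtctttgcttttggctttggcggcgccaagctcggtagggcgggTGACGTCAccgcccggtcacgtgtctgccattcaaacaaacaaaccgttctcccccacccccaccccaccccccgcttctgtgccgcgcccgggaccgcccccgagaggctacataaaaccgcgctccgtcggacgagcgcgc
Dusp5: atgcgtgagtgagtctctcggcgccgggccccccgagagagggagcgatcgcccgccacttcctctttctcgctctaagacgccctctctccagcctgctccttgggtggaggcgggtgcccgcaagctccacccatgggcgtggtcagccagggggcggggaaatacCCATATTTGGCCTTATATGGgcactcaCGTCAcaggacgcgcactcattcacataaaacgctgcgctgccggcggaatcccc
Dusp10: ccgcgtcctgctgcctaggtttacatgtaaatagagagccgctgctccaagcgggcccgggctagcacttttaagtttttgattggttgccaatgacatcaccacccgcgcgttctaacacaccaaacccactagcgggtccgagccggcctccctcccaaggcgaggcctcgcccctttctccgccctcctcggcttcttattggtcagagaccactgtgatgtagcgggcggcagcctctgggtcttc
Spry2: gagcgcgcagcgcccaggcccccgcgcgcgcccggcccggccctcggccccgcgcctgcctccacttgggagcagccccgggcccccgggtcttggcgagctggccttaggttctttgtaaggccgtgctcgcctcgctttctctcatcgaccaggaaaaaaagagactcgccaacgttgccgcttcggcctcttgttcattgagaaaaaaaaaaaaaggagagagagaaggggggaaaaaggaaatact
The Dusp1 window held the full cyclic AMP response element, which contains the core on both strands, beginning 143 bases before the start, and a separate core beginning 191 bases before it. The Dusp5 window held adjoining CArG boxes, CCATATTTGG and CCTTATATGG, beginning 82 and 72 bases before the start, and a core of the cyclic AMP response element beginning 55 bases before it. No motif of the 5 was found in the Dusp10 and Spry2 windows, so their sequences hold no capitals. Of the 9 members with a RefSeq window, 3 held at least 1 motif (Dusp1, Dusp5 and Spred2) and 6 held none. The Spred2 window held only a core of the cyclic AMP response element. Among 32851 windows of the same length over all genes, 17.77% held the core TGACG, 1.55% the full element, 1.47% a CArG box, 6.75% the AP-1 element and 12.03% the ETS core. The share of these windows with at least 1 of the 5 motifs was not counted, so the 3 of 9 has no like figure beside it. A match describes letters and is not a measured binding site, and the absence of a match says only that these letters are not in this window.

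Ranked by TPM (transcript abundance, which corrects for gene length), Dusp1 was the highest member and Dusp5 the next in all 4 groups. Dusp1 averaged 1432 ± 388 TPM in epidermal, 1492 ± 38.6 in dermal CCR6+, 2078 ± 217 in dermal Sca1+ and 1945 ± 476 in subcutaneous libraries. Dusp5 averaged 156 ± 109 TPM in epidermal libraries, where Dusp2 stood beside it at 130 ± 63.4 TPM, within the spread. In the other groups Dusp5 was clear of every lower member, at 517 ± 67.2 TPM in CCR6+, 751 ± 102 in Sca1+ and 897 ± 264 in subcutaneous libraries. Spred1 and Spred2 were among the lowest in every group, at 2.03 to 7.66 TPM on average. Spry2 was the lowest of all 10 members in epidermal (1.17 ± 0.335 TPM) and CCR6+ libraries (1.13 ± 1.04), yet the seventh in Sca1+ (19.1 ± 2.08) and the sixth in subcutaneous libraries (31.4 ± 5.79). Several neighbours in these orders lay within each other's spread, such as Spry1, Dusp4 and Dusp10 in epidermal libraries (26.5 ± 4.52, 22.1 ± 18.2 and 16.0 ± 12.8 TPM) and Dusp2 and Dusp10 in Sca1+ libraries (116 ± 27.6 and 115 ± 2.59 TPM). Dusp1 made up 73.0% to 80.6% of the summed TPM of the 10 members in epidermal libraries and 60.2% to 65.5% in the 7 others.

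**Figure D1:**
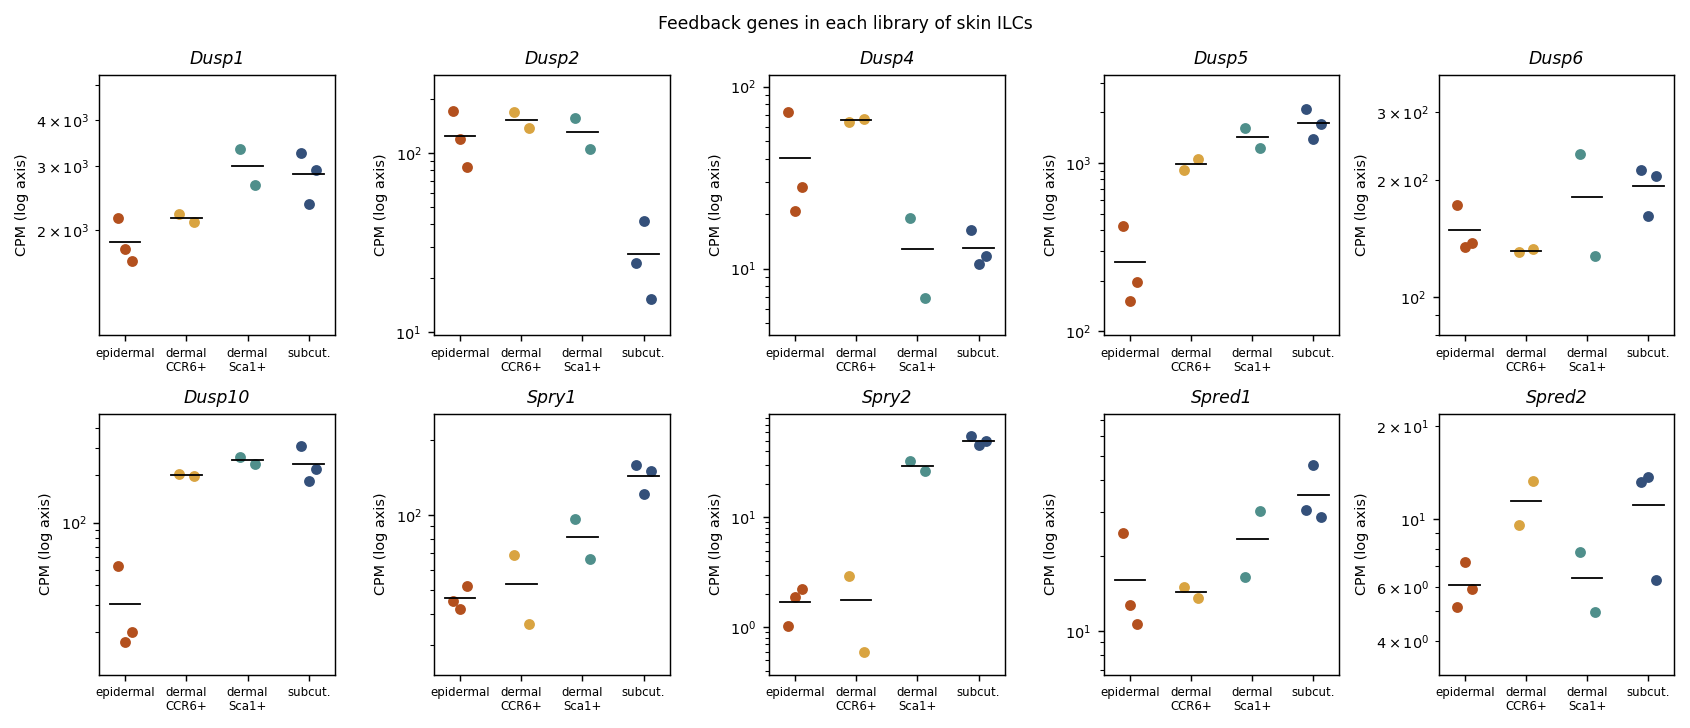
Level of the 10 feedback genes in each library, in CPM on log axes, one panel a gene, with a point for each library and a bar at the group mean. Dusp5 and Dusp10 are low in all 3 epidermal libraries, Spry2 is low in the epidermal and dermal CCR6+ libraries, Dusp2 is low in the 3 subcutaneous libraries, and Dusp6 spans 128 to 234 CPM, with both ends in the dermal Sca1+ libraries.

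Epidermal and subcutaneous ILCs, the ends of the skin's depth, differed in 7 of the 10 members. Dusp2 and Dusp4 were higher in epidermal libraries, and Dusp1, Dusp5, Dusp10, Spry1 and Spry2 were lower, while Dusp6, Spred1 and Spred2 did not pass the test. The test was edgeR's quasi-likelihood test on all 16208 genes that passed the filter on low counts, which all 10 members passed, and a gene was called at a Benjamini-Hochberg adjusted p under 0.05. Of all genes tested, 20.2% were called in this comparison, 6.87% higher and 13.3% lower in epidermal libraries. The median log2 fold change of the members was -0.997, against -0.02 over all genes tested. The 6 comparisons between groups share libraries and are not independent of each other. In bulk RNA, fewer cells of a type and less RNA per cell cannot be told apart, which holds for every level given here.

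Dusp2, also called PAC-1, is a nuclear phosphatase first known from activated lymphocytes. It had 172, 120 and 83.9 CPM in the epidermal libraries, 170 and 138 in the dermal CCR6+ libraries, 157 and 106 in the dermal Sca1+ libraries, and 24.4, 41.7 and 15.4 in the subcutaneous libraries. Every epidermal and dermal library lay above every subcutaneous one, and the epidermal and dermal ranges overlapped. Against subcutaneous libraries Dusp2 was 4.60-fold higher in epidermal libraries (log2 fold change 2.20 ± 0.39 SE, adjusted p = 0.00263, edgeR quasi-likelihood test with Benjamini-Hochberg adjustment), 5.66-fold higher in CCR6+ libraries (2.50 ± 0.41, adjusted p = 0.00536) and 4.84-fold higher in Sca1+ libraries (2.27 ± 0.41, adjusted p = 0.0195). The comparison of Sca1+ with subcutaneous libraries called 2.2% of all genes, with 1.21% called higher, and Dusp2 was the sole member called in it. That call was lost without Sca1+ replicate 1 (adjusted p = 0.13), subcutaneous replicate 1 (0.0808) or subcutaneous replicate 3 (0.0564), with log2 fold changes of 1.96 to 2.20. Its log2 fold change between epidermal and CCR6+ libraries was -0.30 ± 0.41 (edgeR adjusted p = 0.782).

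Dusp4, or MKP-2, is a nuclear phosphatase that acts on ERK and JNK. It had 72.9, 20.7 and 28.04 CPM in the epidermal libraries, 64.1 and 66.3 in the CCR6+ libraries, 18.9 and 6.88 in the Sca1+ libraries, and 16.3, 10.6 and 11.7 in the subcutaneous libraries. The epidermal and CCR6+ libraries lay above all Sca1+ and subcutaneous libraries, by little for epidermal replicate 2 and by much for epidermal replicate 1. Dusp4 was 5.05-fold higher in CCR6+ than in subcutaneous libraries (log2 fold change 2.34 ± 0.55, edgeR adjusted p = 0.0294) and 3.14-fold higher in epidermal than in subcutaneous libraries (1.65 ± 0.51, adjusted p = 0.0442). Both calls were close to the threshold. Without epidermal replicate 1 the log2 fold change of epidermal over subcutaneous libraries was 0.93 with an adjusted p of 0.158, and that call was also lost without epidermal replicate 3 (0.0516), CCR6+ replicate 1 (0.0604), CCR6+ replicate 2 (0.0608) or subcutaneous replicate 1, 2 or 3 (0.0746, 0.129 and 0.118). The call of CCR6+ over subcutaneous libraries was lost without any library of either group, with adjusted p of 0.0643 to 0.128. Between CCR6+ and Sca1+ libraries the log2 fold change was 2.33 ± 0.64 and missed the threshold (edgeR adjusted p = 0.188), while DESeq2 gave an adjusted p of 0.0104 and edgeR with no filter on low counts 0.00013. Epidermal against Sca1+ libraries gave 1.65 ± 0.59 (edgeR adjusted p = 0.104; DESeq2 0.029; edgeR with no filter 0.00273).

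Genes of other cell types differed by group beside Dusp2 and Dusp4. The summed level of 10 keratinocyte genes was 3563 to 9903 CPM in epidermal, 1690 to 2312 in CCR6+, 2094 to 2378 in Sca1+ and 109 to 242 in subcutaneous libraries, and 10 of 10 were called higher in epidermal than in subcutaneous libraries. In CCR6+ and in Sca1+ against subcutaneous libraries 8 of 10 were called higher and 2 were not called. Dusp2 was called higher in both of these comparisons and Dusp4 only in the first. Within the epidermal group, replicate 1 had the highest Dusp2 and Dusp4 and the lowest summed keratinocyte level, at 3563 CPM. That library was also the highest of its group for Dusp1, Dusp5, Dusp6, Dusp10 and Spred1, so this order is not particular to Dusp2 and Dusp4. Replicates 2 and 3 had summed keratinocyte levels of 9903 and 8919 CPM. Of these, replicate 2 had the higher Dusp2, in the same order as the keratinocyte level, and replicate 3 had the higher Dusp4. The summed level of the 8 T cell genes, given above, followed Dusp4 in that every epidermal and CCR6+ library (430 to 485 and 692 to 772 CPM) lay above every Sca1+ and subcutaneous library (308 to 417 and 216 to 408 CPM). In CCR6+ against subcutaneous libraries 1 of the 8 was called higher. In epidermal against subcutaneous libraries 0 of the 8 were called, and 5 had a negative log2 fold change, with a median of -0.57. Cd3g was the largest part of the sum, averaging 281 CPM in epidermal, 417 in CCR6+, 157 in Sca1+ and 153 in subcutaneous libraries. The part of the keratinocyte and T cell genes in the results for Dusp2, Dusp4 and the other members named here was not tested.

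Dusp5 encodes a nuclear phosphatase specific for ERK, and Dusp10, or MKP-5, encodes a phosphatase that prefers JNK and p38. Dusp5 had 425, 152 and 197 CPM in the epidermal libraries, 906 and 1054 in the CCR6+ libraries, 1609 and 1235 in the Sca1+ libraries, and 2094, 1388 and 1708 in the subcutaneous libraries. Dusp10 had 53.2, 17.3 and 20.02 CPM in the epidermal libraries, 205 and 198 in the CCR6+ libraries, 261 and 235 in the Sca1+ libraries, and 307, 183 and 218 in the subcutaneous libraries. For both genes all 3 epidermal libraries lay below all 7 others, and epidermal replicate 1 was the highest of the 3.

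Compared with subcutaneous libraries, Dusp5 was 6.71-fold lower in epidermal libraries (log2 fold change -2.75 ± 0.36, edgeR quasi-likelihood adjusted p = 0.000454) and Dusp10 was 7.82-fold lower (-2.97 ± 0.41, adjusted p = 0.000629). Compared with dermal Sca1+ libraries, Dusp5 was 5.51-fold lower (-2.46 ± 0.38, edgeR adjusted p = 0.00204) and Dusp10 was 8.22-fold lower (-3.04 ± 0.43, adjusted p = 0.00126). Compared with dermal CCR6+ libraries, Dusp5 was 3.80-fold lower (-1.93 ± 0.38, edgeR adjusted p = 0.0123) and Dusp10 was 6.67-fold lower (-2.74 ± 0.43, adjusted p = 0.00367). These were the 2 members called between epidermal and CCR6+ libraries, a comparison that called 6.18% of all genes and 5.19% as lower. Between epidermal and Sca1+ libraries 3 members were called, all lower, beside 11.4% of all genes called, 2.75% higher and 8.66% lower. The call of Dusp5 against CCR6+ libraries was lost without CCR6+ replicate 2 (log2 fold change -1.81, adjusted p = 0.0593).

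Among the 3 deeper groups the levels of Dusp10 lay close together, with log2 fold changes of -0.30 ± 0.47 for CCR6+ over Sca1+, 0.07 ± 0.42 for Sca1+ over subcutaneous and -0.23 ± 0.43 for CCR6+ over subcutaneous libraries, none of which passed the edgeR test (adjusted p = 0.908, 0.973 and 0.809). Dusp5 had -0.54 ± 0.42, -0.28 ± 0.38 and -0.82 ± 0.39 in the same comparisons (edgeR adjusted p = 0.705, 0.822 and 0.242, the last 0.0283 with no filter on low counts), and both CCR6+ libraries lay below all Sca1+ and subcutaneous libraries. Over all pairs of members, Dusp5 and Dusp10 had the second smallest difference in pattern, with a root mean square difference of 0.35 in centred log2 CPM over the 10 libraries. The smallest was that of Dusp1 and Dusp6, at 0.22.

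The balance between phosphatase genes was set out as ratios within each library. The TPM of Dusp5 was 0.705 to 1.40 times that of Dusp2 in epidermal libraries, 3.03 and 4.46 times in CCR6+, 6.09 and 7.07 times in Sca1+, and 19.0 to 63.6 times in subcutaneous libraries. The TPM of Dusp10 was 0.699 to 0.818 times that of Dusp4 in epidermal libraries, 3.13 and 2.92 times in CCR6+, 13.5 and 33.5 times in Sca1+, and 16.8 to 18.4 times in subcutaneous libraries. The ranges of the first ratio did not overlap between any of the groups, and those of the second overlapped between Sca1+ and subcutaneous libraries. These ratios restate the levels above within each library and were not tested on their own.

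**Figure D2:**
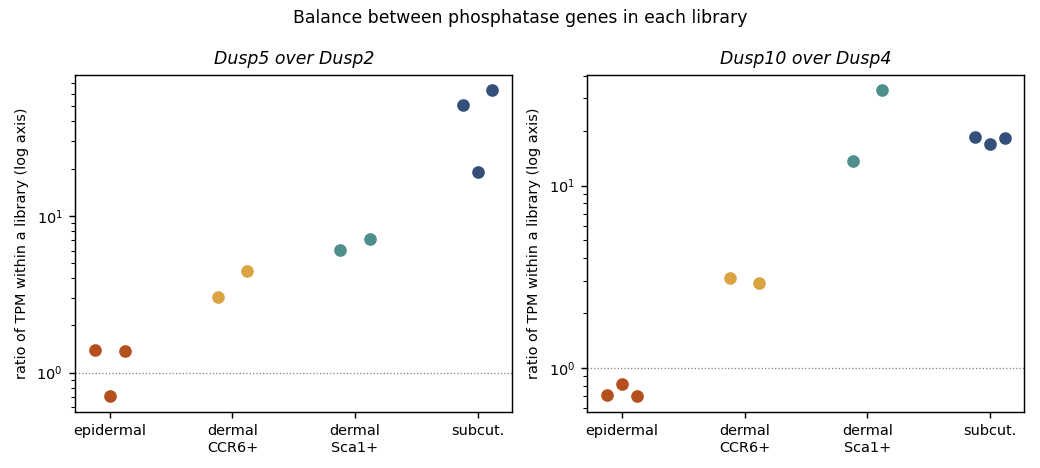
Ratio of TPM within each library, on log axes, of Dusp5 over Dusp2 (left) and of Dusp10 over Dusp4 (right), with a point for each library and a dotted line where both genes are equal. The 3 epidermal libraries lie between 0.705 and 1.40 for the first ratio and between 0.699 and 0.818 for the second, below all 7 dermal and subcutaneous libraries in both panels.

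Spry2, an inhibitor of receptor tyrosine kinase signalling to Ras and ERK, divided the 2 dermal populations. It had 1.03, 1.88 and 2.23 CPM in the epidermal libraries, 2.95 and 0.594 in the CCR6+ libraries, 33.0 and 26.3 in the Sca1+ libraries, and 54.9, 45.8 and 49.4 in the subcutaneous libraries. The 5 epidermal and CCR6+ libraries held 9 to 46 expected counts each and the 5 others 306 to 820, so the groups fell into a low and a high set with no library between. Spry2 was 29.1-fold lower in epidermal than in subcutaneous libraries (log2 fold change -4.86 ± 0.57, edgeR quasi-likelihood adjusted p = 0.000201) and 17.2-fold lower in epidermal than in Sca1+ libraries (-4.11 ± 0.57, adjusted p = 0.00109). CCR6+ libraries were 28.1-fold lower than subcutaneous libraries (-4.81 ± 0.68, edgeR adjusted p = 0.00219) and 16.6-fold lower than Sca1+ libraries (-4.06 ± 0.67, adjusted p = 0.0265).

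Spry2 was the sole member called between CCR6+ and Sca1+ libraries, where 0.642% of all genes were called and 0.346% were called lower. That call was lost with the 2 dermal groups fitted alone (edgeR adjusted p = 0.195), and without CCR6+ replicate 2 (0.0881), Sca1+ replicate 1 (0.0912), Sca1+ replicate 2 (0.066) or subcutaneous replicate 1, 2 or 3 (0.0593, 0.0512 and 0.059), with log2 fold changes of -4.18 to -3.32. The 2 CCR6+ libraries differed from each other, at 46 and 9 expected counts, and the log2 fold change between epidermal and CCR6+ libraries was -0.05 ± 0.58 (edgeR adjusted p = 1.0), with the sign turning to 1.52 without CCR6+ replicate 1 and 0.22 without epidermal replicate 1. Between Sca1+ and subcutaneous libraries it was -0.75 ± 0.54 (edgeR adjusted p = 0.582), and both Sca1+ libraries lay below the 3 subcutaneous ones.

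Spry1, its relative with the same place in the pathway, had 44.9, 41.7 and 52.0 CPM in the epidermal libraries, 69.3 and 36.5 in the CCR6+ libraries, 96.5 and 66.7 in the Sca1+ libraries, and 159, 121 and 151 in the subcutaneous libraries. The 3 subcutaneous libraries were above all others, while the epidermal and CCR6+ ranges overlapped, as did the CCR6+ and Sca1+ ranges. Spry1 was 3.11-fold lower in epidermal than in subcutaneous libraries (log2 fold change -1.64 ± 0.27, edgeR adjusted p = 0.00185) and 2.72-fold lower in CCR6+ than in subcutaneous libraries (-1.44 ± 0.31, adjusted p = 0.0188). The second call was lost without CCR6+ replicate 2 (-1.05, adjusted p = 0.172), subcutaneous replicate 1 (0.0552) or subcutaneous replicate 3 (0.053). In that comparison 4 of the 10 members were called, Dusp2 and Dusp4 as higher and Spry1 and Spry2 as lower, beside 7.46% of all genes, 3.75% higher and 3.71% lower. Sca1+ over subcutaneous libraries gave -0.82 ± 0.30 for Spry1 (edgeR adjusted p = 0.225).

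Genes of other cell types also differed by group beside Dusp1, Dusp5, Dusp10, Spry1 and Spry2, in the same direction in some comparisons and not in others. The summed level of 10 fibroblast genes was 0.488 to 18.2 CPM in epidermal, 1245 to 2149 in CCR6+, 2622 to 3830 in Sca1+ and 2996 to 4520 in subcutaneous libraries. That of 10 endothelial genes was 3.97 to 8.82 CPM in epidermal, 186 to 464 in CCR6+, 581 to 612 in Sca1+ and 319 to 685 in subcutaneous libraries. That of 10 macrophage genes was 2.33 to 4.36 CPM in epidermal, 189 to 238 in CCR6+, 348 to 691 in Sca1+ and 4149 to 7788 in subcutaneous libraries. Of each of these 3 lists, 10 of 10 genes were called lower in epidermal than in subcutaneous libraries. The 7 mast cell genes summed to 0.0495 to 0.139 CPM in epidermal, 37.3 to 49.7 in CCR6+, 346 to 426 in Sca1+ and 157 to 351 in subcutaneous libraries, with 6 of 7 called lower in epidermal than in subcutaneous libraries. In epidermal libraries the fibroblast genes Pdgfra and Mfap5, the endothelial genes Cdh5, Plvap, Kdr and Cldn5, the macrophage genes Mrc1 and Fcgr1 and the mast cell genes Mcpt4, Cma1, Fcer1a and Ms4a2 had no count. The summed fibroblast level of every epidermal and CCR6+ library lay below that of every Sca1+ and subcutaneous library, as did the levels of Spry2 and Dusp1. Between epidermal and CCR6+ libraries 10 of 10 endothelial and 8 of 10 fibroblast genes were called lower, as were Dusp5 and Dusp10. Dusp1, Spry1 and Spry2 were not called there, with log2 fold changes of -0.22, -0.19 and -0.05. Dusp10 averaged 201 CPM in CCR6+, 248 in Sca1+ and 236 in subcutaneous libraries, while the summed macrophage level was highest in the subcutaneous libraries. Between CCR6+ and Sca1+ libraries, where Spry2 was called, all 10 fibroblast, all 10 endothelial and all 10 macrophage genes had a negative log2 fold change, with medians of -1.08, -0.78 and -1.74. Of these 30 genes 0 passed with edgeR, DESeq2 or limma, and 6, 8 and 11 had an unadjusted p under 0.05 with these tools. Cpa3, 1 of 7 mast cell genes, was called lower by edgeR. The part of these genes in the results for Dusp1, Dusp5, Dusp10, Spry1 and Spry2 was not tested.

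Dusp1, or MKP-1, is a nuclear phosphatase of p38, JNK and ERK and an immediate early gene. It had 2159, 1773 and 1649 CPM in the epidermal libraries, 2217 and 2104 in the CCR6+ libraries, 3339 and 2668 in the Sca1+ libraries, and 3261, 2352 and 2917 in the subcutaneous libraries. All epidermal and CCR6+ libraries lay below all Sca1+ and subcutaneous libraries. Dusp1 was 1.53-fold lower in epidermal than in subcutaneous libraries (log2 fold change -0.61 ± 0.18, edgeR adjusted p = 0.0383). The call was lost on log2(TPM + 1) with limma (adjusted p = 0.15), with no filter on low counts (0.0536), with the 2 groups fitted alone (0.0716), and without any of the 10 libraries except epidermal replicate 1 and subcutaneous replicate 2 (0.0536 to 0.134). The fibroblast, endothelial, macrophage and mast cell genes given above moved in the same direction, and their part was not tested. Epidermal over Sca1+ libraries gave a log2 fold change of -0.69 ± 0.20 and an edgeR adjusted p of 0.0517, and it passed with DESeq2 (0.00591), RLE scaling (0.0429), a filter of 5 CPM in 2 libraries (0.0312), and without epidermal replicate 1 (0.038) or subcutaneous replicate 1 (0.0475).

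Dusp6, or MKP-3, is the cytoplasmic phosphatase of ERK and a widely used readout of ERK activity. It had 173, 135 and 138 CPM in the epidermal libraries, 131 and 133 in the CCR6+ libraries, 234 and 128 in the Sca1+ libraries, and 213, 162 and 206 in the subcutaneous libraries. The 2 Sca1+ libraries were the highest and the lowest of all 10, the epidermal and subcutaneous ranges overlapped, and both CCR6+ libraries lay below all 3 subcutaneous ones. No comparison called Dusp6, and its log2 fold changes ran from -0.55 ± 0.27 for CCR6+ over subcutaneous libraries (edgeR adjusted p = 0.254) to 0.17 ± 0.27 for epidermal over CCR6+ libraries (0.814). Epidermal over subcutaneous libraries gave -0.38 ± 0.24 (edgeR adjusted p = 0.304), a test that misses the threshold and does not show that the levels were alike.

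Spred1 and Spred2 bind neurofibromin and keep Ras from activating RAF. Spred1 had 24.6, 12.7 and 10.7 CPM in the epidermal libraries, 15.0 and 13.6 in the CCR6+ libraries, 16.4 and 30.1 in the Sca1+ libraries, and 30.5, 46.2 and 28.6 in the subcutaneous libraries. The 3 subcutaneous libraries lay above the epidermal and CCR6+ libraries and overlapped with the Sca1+ libraries. For epidermal over subcutaneous libraries the log2 fold change was -1.13 ± 0.40 and missed the threshold with edgeR (adjusted p = 0.075), but passed with DESeq2 (0.023) and without epidermal replicate 1 (-1.56, adjusted p = 0.0244). CCR6+ over subcutaneous libraries gave -1.29 ± 0.47 (edgeR adjusted p = 0.129; DESeq2 0.0339). Spred2 had 5.15, 7.24 and 5.90 CPM in the epidermal libraries, 9.56 and 13.3 in the CCR6+ libraries, 7.82 and 4.99 in the Sca1+ libraries, and 13.2, 13.7 and 6.34 in the subcutaneous libraries. Its groups overlapped except for the CCR6+ libraries, which lay above the epidermal and Sca1+ libraries, and no comparison called it (edgeR adjusted p = 0.254 for epidermal over subcutaneous libraries).

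**Figure D3:**
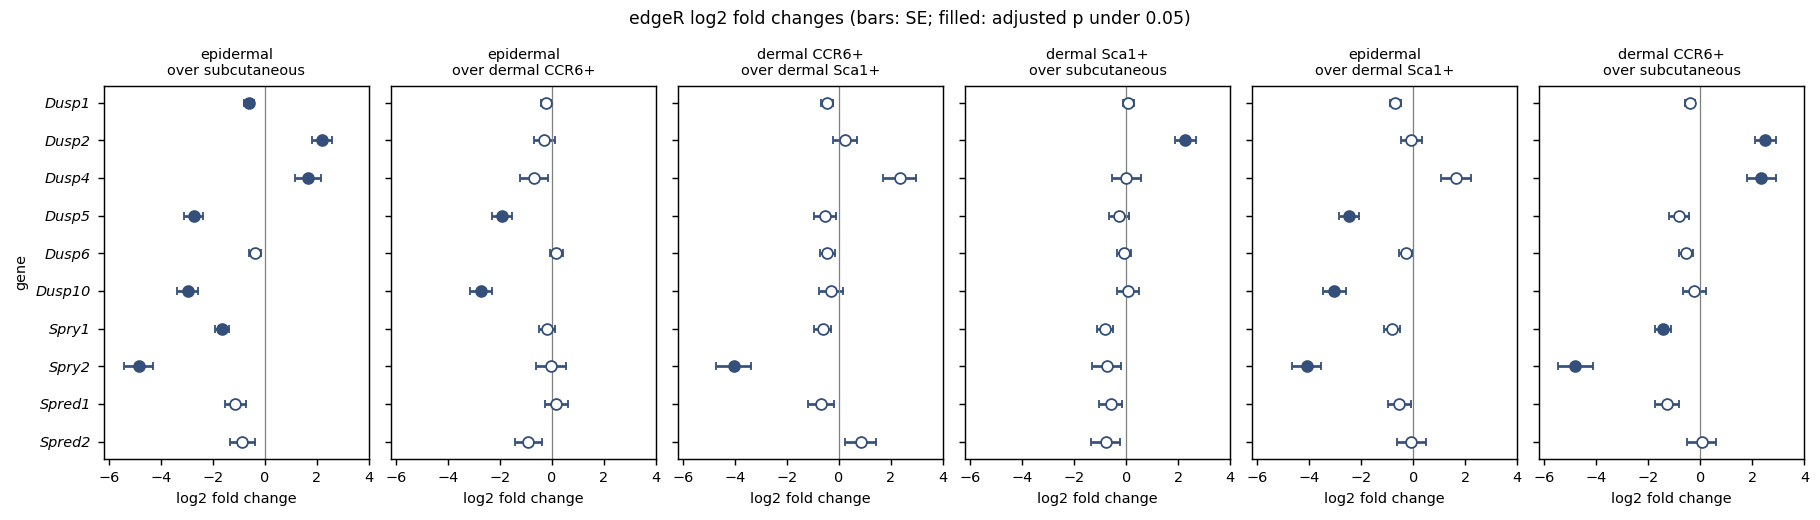
Log2 fold change with its standard error for each of the 10 feedback genes in the 6 comparisons between groups, from edgeR's quasi-likelihood fit, with filled points for those called at an adjusted p under 0.05. Spry2 is beyond -4 in all 4 comparisons of epidermal or dermal CCR6+ with dermal Sca1+ or subcutaneous libraries, and Dusp6 stays between -0.55 and 0.17 in all 6.

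Set out by layer, the members called in each comparison of neighbouring groups were different genes. Dusp5 and Dusp10 were called between epidermal and dermal CCR6+ libraries, Spry2 between the 2 dermal populations, and Dusp2 between dermal Sca1+ and subcutaneous libraries. A gene called in 1 of these comparisons and not in another is not thereby shown to differ between them, and that difference was not tested. As a count with no test, the libraries of the 2 groups did not overlap for 8 of 10 members in epidermal against subcutaneous libraries (39.7% of all genes tested), 4 in epidermal against CCR6+ (34.3%), 7 in CCR6+ against Sca1+ (39.4%), 3 in Sca1+ against subcutaneous (34.0%), 6 in epidermal against Sca1+ (40.9%) and 8 in CCR6+ against subcutaneous libraries (43.3%). With 2 or 3 libraries a group, a large share of all genes does not overlap. Within groups, epidermal replicate 1 was the highest of the 3 epidermal libraries for 7 of the 10 members, dermal Sca1+ replicate 1 the higher of its pair for 9 and subcutaneous replicate 1 the highest of 3 for 7. The level of 17 transcription factor and early response genes linked to ERK was summed. It was 7080 CPM in epidermal replicate 1 (4365 and 4197 in the other epidermal libraries) and 8508 in Sca1+ replicate 1 (7969 in the other). Subcutaneous replicate 1 had 13568 CPM (7806 and 10360 in the other subcutaneous libraries). In each of these groups replicate 1 was the highest. In the CCR6+ pair the order differed: replicate 1 was the higher for 6 of the 10 members and had the lower summed level, at 7689 CPM, while replicate 2 had 8523. Fos and Junb were the largest parts of the summed level in every group. They averaged 2061 and 1967 CPM in epidermal libraries and 2970 and 4127 CPM in subcutaneous libraries. How often each library was the highest of its group over all genes was not counted, so the counts above are not shown to be particular to the members.

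By the measure used for pairs of members, the genes whose course over the 10 libraries was nearest to each member were sought among genes averaging at least 10 CPM. Only members whose group means spanned at least 1 on the log2 scale were used, which left out Dusp1, Dusp6 and Spred2. Dusp5 was nearest to Zc3hav1 (0.23), and Dusp10 to Il4ra (0.24), which encodes the receptor chain for IL-4 and IL-13, and Nfkbie (0.34). Dusp2 was nearest to Dlg5 (0.43) and Ptpn22 (0.44), and Dusp4 to Smox (0.46) and Slc39a4 (0.47). Spry1 was nearest to Ranbp6 (0.25) and Galnt7 (0.26), and Spred1 to Nop58 (0.27) and Usp25 (0.29). Spry2, with the widest span, had its nearest neighbours farther away, at 0.59 for Gimap1 and 0.64 for Csf2, the gene of the cytokine GM-CSF. These likenesses are a description over 10 libraries in 4 groups, and they say nothing of shared control.

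The other members of the 3 families were tested as far as they were detected: 5 of 7 passed the filter, Spred3 did not, and Spry3 was not analysed here. Dusp8, a phosphatase of JNK and p38, was lower in epidermal libraries, at 6.94, 3.90 and 4.91 CPM against 35.1, 11.8 and 16.1 in subcutaneous libraries (log2 fold change -2.0 ± 0.51, edgeR adjusted p = 0.0191). Its reads cannot be told apart from those of Gm32786, a gene on the opposite strand that shares exon bases and was not analysed here. Dusp7, a cytoplasmic ERK phosphatase, averaged 44.7 ± 11.61 CPM in epidermal and 35.5 ± 9.91 in subcutaneous libraries (edgeR adjusted p = 0.544). Dusp16, a JNK phosphatase, averaged 9.28 ± 4.75 CPM in epidermal and 25.8 ± 7.21 in subcutaneous libraries (edgeR adjusted p = 0.0937). Spry4 averaged 1.30 ± 1.14 CPM in epidermal and 12.035 ± 4.83 in subcutaneous libraries (edgeR adjusted p = 0.207; SD, n = 3 each). Dusp9 had no count in either Sca1+ library, where 3 counts are worth 0.183 and 0.258 CPM, and at most 2.90 CPM in any library. The median log2 fold change of the 5 genes tested was -1.48 for epidermal over subcutaneous libraries, with 1 called, against -0.02 over all genes.

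The kinases that these brakes act on, and the steps above them, were counted next. Of 23 genes of the Ras, RAF, MEK and MAPK cascade, 1 was called higher and 2 lower in epidermal than in subcutaneous libraries, with a median log2 fold change of 0.07. Hras, a Ras GTPase, was higher (114 ± 34.4 CPM in epidermal and 39.7 ± 6.47 in subcutaneous libraries; log2 fold change 1.53 ± 0.28, edgeR adjusted p = 0.00313). Mapk12, which encodes p38 gamma, was lower (6.66 ± 2.85 CPM in epidermal and 42.9 ± 13.9 in subcutaneous libraries; log2 fold change -2.69 ± 0.41, edgeR adjusted p = 0.00114; SD, n = 3 each).

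Transcription factor and early response genes linked to ERK, listed as ERK-responsive, were mostly lower in epidermal libraries. The list also holds Srf, Elk1 and Elk3, whose RNA is not taken here as a response to ERK. Of 17 genes, 10 were called lower and 1 higher than in subcutaneous libraries, beside 20.2% of all genes called, with a median log2 fold change of -1.53. The fibroblast, endothelial and macrophage genes (10 of 10 called lower on each list) and mast cell genes (6 of 7) moved in the same direction, and their part in this result was not tested. Ier3, an early response gene, averaged 3.94 ± 0.424 CPM in epidermal and 119 ± 21.4 in subcutaneous libraries (log2 fold change -4.91 ± 0.43, edgeR adjusted p = 3.95e-05), and Fosl1, an AP-1 subunit, had a log2 fold change of -4.13 ± 0.70 (adjusted p = 0.00226). Elk3, an ETS factor of the ternary complex that binds with serum response factor, was the gene that was higher (119 ± 16.8 CPM in epidermal and 42.3 ± 4.46 in subcutaneous libraries; 1.496 ± 0.21, edgeR adjusted p = 0.000642). The other genes called lower were Egr1, Fosb, Fosl2, Jun, Junb, Myc, Ier2 and Etv5. In epidermal against Sca1+ libraries 6 of the 17 were called lower and 1 higher (11.4% of all genes called), and in epidermal against CCR6+ libraries 4 were called lower and 1 higher (6.18% of all genes called).

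Further inhibitors of Ras and ERK signalling went in both directions. Of 15 genes 14 were tested, of which 2 were called higher and 2 lower in epidermal than in subcutaneous libraries, with a median log2 fold change of 0.14. The genes called were 28.6% of those tested, beside 20.2% of all genes called. Errfi1, or MIG6, an inhibitor of the EGF receptor, averaged 41.2 ± 7.96 CPM in epidermal and 385 ± 69.2 in subcutaneous libraries (log2 fold change -3.22 ± 0.23, edgeR adjusted p = 1.11e-05), and Rasa3, a Ras GTPase-activating protein gene, had -0.87 ± 0.27 (adjusted p = 0.0475). Lrig1, an inhibitor of ErbB receptors, had 1.599 ± 0.50 (edgeR adjusted p = 0.0475), and Ptpn22, a lymphocyte phosphatase that limits antigen receptor signalling, had 1.55 ± 0.38 (adjusted p = 0.0166). Ptpn22 was also among the genes nearest to Dusp2 in its course over the libraries.

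**Figure D4:**
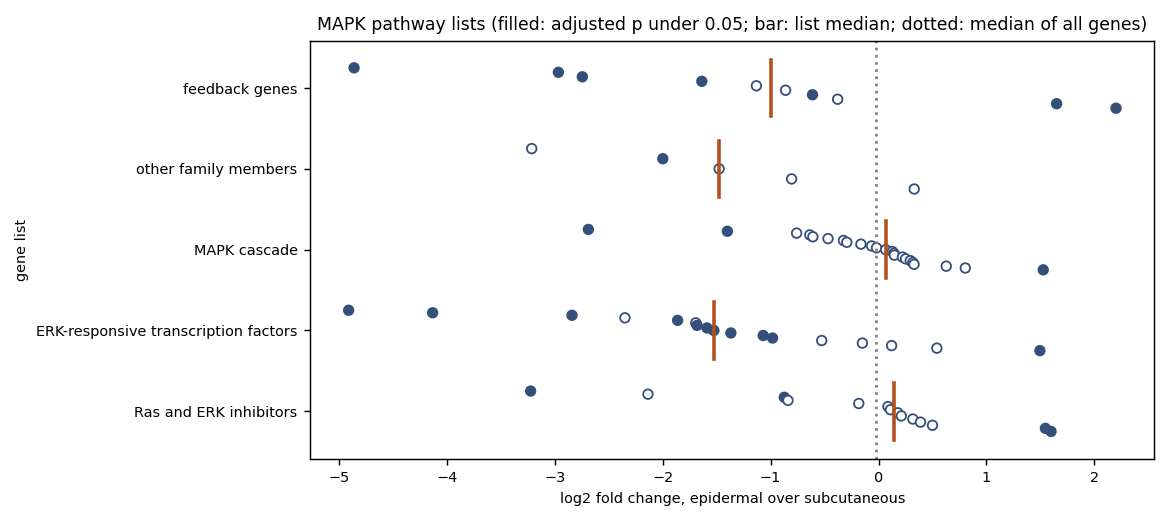
Log2 fold change of epidermal over subcutaneous libraries for each gene of 4 lists and for the 10 feedback genes, with filled points for genes called by edgeR at an adjusted p under 0.05 and a bar at the median of each list; the dotted line is the median of all genes. The medians are -0.997 for the feedback genes, -1.48 for the other family members, 0.07 for the cascade, -1.53 for the ERK-responsive genes and 0.14 for the other inhibitors.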

How the data were processed

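Per the labels' protocols, RNA was isolated with a column kit, amplified as cDNA with an ultra-low-input SMART kit and tagged with Nextera XT. The submitters' processing notes name Trimmomatic, STAR, RSEM and mm10. The order, settings and versions of these tools, and the annotation release, were not given in the sources used here. Expected counts and TPM are, per the file headers, RSEM's estimates per gene; the authors deposited them per library, and 7.20% to 8.39% of expected counts were not whole. FPKM was not used.

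Expected counts were rounded to whole numbers. Genes were kept by filterByExpr (count minimum 10; 16208 genes), scaled by TMM and fitted by group over all 10 libraries with edgeR 4.0.16 in R 4.3.3 (quasi-likelihood test, two-sided, Benjamini-Hochberg adjustment over all genes tested; SE is the log2 fold change over the square root of F). Levels are TMM-scaled CPM; TPM ranks genes within a group. Alternatives used RLE scaling, DESeq2 1.42.0, limma 3.58.1 on log2(TPM + 1), other filters, the 2 groups alone, a replicate block and each library left out. Replicate pairs differed beyond counting noise (chi-square per degree of freedom 39.8 to 130). On simulated data for epidermal over subcutaneous libraries (15572 genes), 71.4% of genes changed by 2 on the log2 scale and 90.8% of those changed by 3 were recovered. Of the unchanged genes, 9 were called. The simulation gave each gene the spread expected at its level, not its own, and changed only genes above a minimum level. These shares are therefore not the power of the test on the real libraries.

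All members are named; of each other pathway list, up to 2 called genes in either direction with the largest fold change in epidermal over subcutaneous libraries are named with full values, and other list genes were named after their values were seen. A few genes that these rules name are not reported here. Members, lists and motifs were chosen with earlier results of these data known. Symbols came from GENCODE M21, promoters from RefSeq (GRCm38.p6); Dusp4 had no promoter entry.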

Additional observations from a re-analysis of the deposited data

How the results depend on the processing

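Of 544 values, 32 fold changes of members under 17 alternatives, 487 kept direction and side of the threshold, 38 lost the call, 13 gained it and 6 turned sign; none of the 6 was called. Dusp2, Dusp5, Dusp10, Spry1 and Spry2 in epidermal over subcutaneous, Dusp10 in epidermal over CCR6+, Dusp5, Dusp10 and Spry2 in epidermal over Sca1+, and Dusp2 and Spry2 in CCR6+ over subcutaneous libraries passed under every alternative run. For CCR6+ over Sca1+ the count of members called was 1 with edgeR, 2 with DESeq2 and 2 with no filter beyond 1 count, 0 with the 2 groups alone (4 at an unadjusted p under 0.05) and 0 to 1 without 1 library (2 or 3 at an unadjusted p under 0.05 where it was 0). For epidermal over Sca1+ it was 3 with edgeR and 5 with DESeq2. Without 1 library the counts were 5 to 7 for epidermal over subcutaneous, 1 to 2 for epidermal over CCR6+, 0 to 1 for Sca1+ over subcutaneous (1 or 2 at an unadjusted p under 0.05 where it was 0), 3 to 4 for epidermal over Sca1+ and 2 to 4 for CCR6+ over subcutaneous. Spry2 in epidermal over CCR6+ turned to 0.11 with limma and ran from -0.78 to 1.52 without 1 library. Without 1 library, Dusp6 ran from -0.80 to 0.0465 in CCR6+ over Sca1+, from -0.60 to 0.25 in Sca1+ over subcutaneous and from -0.63 to 0.22 in epidermal over Sca1+. The cause of these changes was not tested. Spry2 rests on 9 to 46 counts in the low libraries, which limits its fold changes.

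Counts over all genes also moved. Epidermal over CCR6+ called 1001 genes with edgeR, 2201 with DESeq2, 2028 with no filter and 618 with the 2 groups alone. CCR6+ over Sca1+ called 104, and 666, 647 and 47 under the same alternatives and 35 to 155 without 1 library. Sca1+ over subcutaneous called 357, and 1349, 1328 and 560, 891 with limma and 157 to 420 without 1 library. Epidermal over Sca1+ called 1848, 3203 with DESeq2, 2918 with no filter and 1192 to 1865 without 1 library. CCR6+ over subcutaneous called 1209, 2570 with DESeq2, 2292 with no filter, 1978 with limma and 435 to 1372 without 1 library. Without 1 epidermal or subcutaneous library, epidermal over subcutaneous called 2280 to 3048 genes, against 3268 with all libraries. Epidermal over CCR6+ called 732 to 1081 without 1 of these libraries. Epidermal over subcutaneous split into 1113 higher and 2155 lower with edgeR and 2051 and 2230 with limma, where the median log2 fold change over all genes was -0.02 with edgeR and 0.08 with limma. Epidermal over CCR6+ split into 160 higher and 841 lower with edgeR, 689 and 1512 with DESeq2 and 390 and 707 with limma. Sca1+ over subcutaneous split into 196 higher and 161 lower with edgeR, 544 and 805 with DESeq2 and 356 and 535 with limma. CCR6+ over subcutaneous split into 608 higher and 601 lower with edgeR, 1071 and 1499 with DESeq2 and 935 and 1357 with no filter. Epidermal over Sca1+ split into 445 higher and 1403 lower with edgeR, 1149 and 2054 with DESeq2 and 946 and 1472 with limma.

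Between libraries with the same replicate number, deviations from the group mean had correlations of -0.0381 to 0.114. The deviations within each dermal pair mirror each other, and every group holds few libraries. These correlations therefore cannot decide whether the numbers pair the libraries. With the replicate block in edgeR the count of members called in CCR6+ over Sca1+ was 0 (4 at an unadjusted p under 0.05), with Spry2 at a log2 fold change of -4.16 and an adjusted p of 0.0677. Over all genes the block gave 64 in CCR6+ over Sca1+ and 203 in Sca1+ over subcutaneous libraries; it changed no other call of a member.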
